A study of Homo sapiens with 24 samples.

Results

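The 10 genes of the cytosolic nucleic acid sensing group followed here were MB21D1, which encodes the DNA sensor cGAS, IFI16, TREX1, TMEM173, which encodes STING, DDX58, which encodes RIG-I, IFIH1, which encodes MDA5, MAVS, TBK1, IRF3 and IRF7. They were taken by symbol, and each was found once among the 48162 genes of the deposited count table, so the 10 genes are 10 of 48162 rows. RNA was sequenced from PPC1 cells, an established prostate cancer line, in 4 conditions with 6 libraries each. UT were parental cells without irradiation, harvested on day 5, and UT_LCL were the same cells given 5 µM LCL-521, an inhibitor of acid ceramidase (ASAH1), for 5 h before harvest. PGCC, polyploid giant cancer cells, received 8 Gy of radiation on day 2 and were recovered on day 5 as the cells held back by a 20 micron filter, and PGCC_LCL were PGCC that also received 5 µM LCL-521 before harvest. The experiment was done 6 independent times with all 4 conditions in parallel, and the replicate number marks that round. Irradiation and size filtration separate both PGCC conditions from both parental conditions and cannot be told apart here, and all libraries come from 1 cell line.

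Cytosolic DNA is bound by cGAS, which makes the cyclic dinucleotide cGAMP. This messenger binds STING on the endoplasmic reticulum, and STING recruits the kinase TBK1. Double-stranded or uncapped RNA is bound by the helicases RIG-I and MDA5, which signal through MAVS on the outer mitochondrial membrane, also to TBK1. TBK1 phosphorylates IRF3 and IRF7, the transcription factors that switch on type I interferon genes, while the exonuclease TREX1 degrades DNA in the cytosol. RIG-I, MDA5 and IRF7 are themselves among the genes that interferon induces, and irradiated cells are a well-known source of cytosolic DNA from micronuclei.

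The libraries held between 14835246 and 19906601 counts on genes, and 3 counts, taken as the level below which a gene was not told from absent, were 0.15 to 0.207 CPM (read counts scaled to library size, with TMM factors). CDKN1A, known as a p53 target that irradiation can induce, lay between 5.1 and 14.4 CPM in UT and between 52.3 and 186 CPM in PGCC (log2 fold change 3.74, adjusted p = 2.26e-06). The cause of its rise here, and a part of p53 in it, was not tested. Of 5 epithelial markers 4 were over 3 counts in every library, while the prostate lineage markers KLK2, KLK3 and FOLH1 had 0 counts in every library and TMPRSS2 had at most 2. The first principal component (55.9% of the variance) separated PGCC from parental cells, and the second (16.5%) set replicates 4 and 5 of each condition apart from the others. Because the measurement is of bulk RNA, more cells with a transcript and more transcript per cell cannot be told apart. CPM is a share of the counts of a library, and RNA per cell was not measured. Words such as rose and fell below therefore refer to that share and not to an amount per cell.

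The promoters of the 3 members that stood at the ends of the range of change in PGCC are shown first, because IFIH1 and DDX58 rose most and TBK1 was the member that fell. RefSeq start sites on GRCh38.p14 were available for 6 of the 10 members (TREX1, TBK1, DDX58 under its symbol RIGI, IFIH1, MAVS and IFI16). The 250 bases before the start are printed 5′ to 3′ on the strand of the gene, with capitals marking each match to GAAANNGAAA on either strand, the core of the interferon-stimulated response element (ISRE). The IFIH1 sequence is chr2:162318685-162318934 on the minus strand, the DDX58 sequence is chr9:32526197-32526446 on the minus strand, and the TBK1 sequence is chr12:64451870-64452119 on the plus strand.
IFIH1: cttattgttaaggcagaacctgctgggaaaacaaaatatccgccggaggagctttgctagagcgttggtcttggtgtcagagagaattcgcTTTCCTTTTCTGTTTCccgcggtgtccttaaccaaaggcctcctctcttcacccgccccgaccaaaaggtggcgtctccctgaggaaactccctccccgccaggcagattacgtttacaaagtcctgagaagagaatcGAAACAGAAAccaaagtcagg
DDX58: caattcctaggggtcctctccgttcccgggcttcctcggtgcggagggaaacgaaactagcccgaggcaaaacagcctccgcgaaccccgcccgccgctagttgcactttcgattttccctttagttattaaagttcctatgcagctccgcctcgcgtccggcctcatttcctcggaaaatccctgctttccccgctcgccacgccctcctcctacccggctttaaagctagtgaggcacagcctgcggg
TBK1: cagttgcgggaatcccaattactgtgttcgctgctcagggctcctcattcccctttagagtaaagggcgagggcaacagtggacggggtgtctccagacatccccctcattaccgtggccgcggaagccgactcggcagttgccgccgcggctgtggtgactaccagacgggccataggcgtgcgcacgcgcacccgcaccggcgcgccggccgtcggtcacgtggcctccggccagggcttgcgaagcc
IFIH1 held 3 ISRE matches, and no other member with a sequence held one, while 3.02% of 35116 RefSeq promoters of this length held at least 1. The pattern fixes the spacing of the GAAA repeats. Repeats at another spacing, such as gaaacgaaa in the DDX58 sequence, were not counted. A pair of the IFIH1 matches lay on the minus strand at bases -159 to -150 and -153 to -144 and overlapped each other, and the other lay on the plus strand at bases -21 to -12. The NF-kappaB consensus was found once in IFIH1 and once in DDX58, in both at bases -76 to -67 on the minus strand and outside the ISRE matches, and in 9.96% of all promoters. The AP-1 site TGANTCA, present in 6.57% of all promoters, was found in none of the 6 members. These matches describe letters in a window and were not measured as binding.

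Comparison of PGCC with UT asked how the sensing genes differ between giant cells and the parental line. The RNA sensors rose most: DDX58 4.85-fold and IFIH1 3.42-fold. The DNA-sensing arm of MB21D1, TMEM173 and TREX1 rose between 1.54-fold and 2.12-fold, the transcription factors IRF3 and IRF7 rose 1.53-fold and 1.64-fold, and TBK1, the kinase that both arms share, fell. Of the 10 members 9 had enough counts to be tested, and 8 passed the threshold of an adjusted p of 0.05 in edgeR's quasi-likelihood test, 7 higher and 1 lower in PGCC. Across all genes 47.4% of the 13812 tested passed it, 23.1% higher and 24.3% lower. The median log2 fold change was 0.68 over the 9 members and -0.03 over all genes tested. The split of all calls depended on scaling, with 48.7% of calls higher in PGCC under TMM and 60.2% under library totals alone, and each of the 9 members kept its direction under both.

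**Figure D1:**
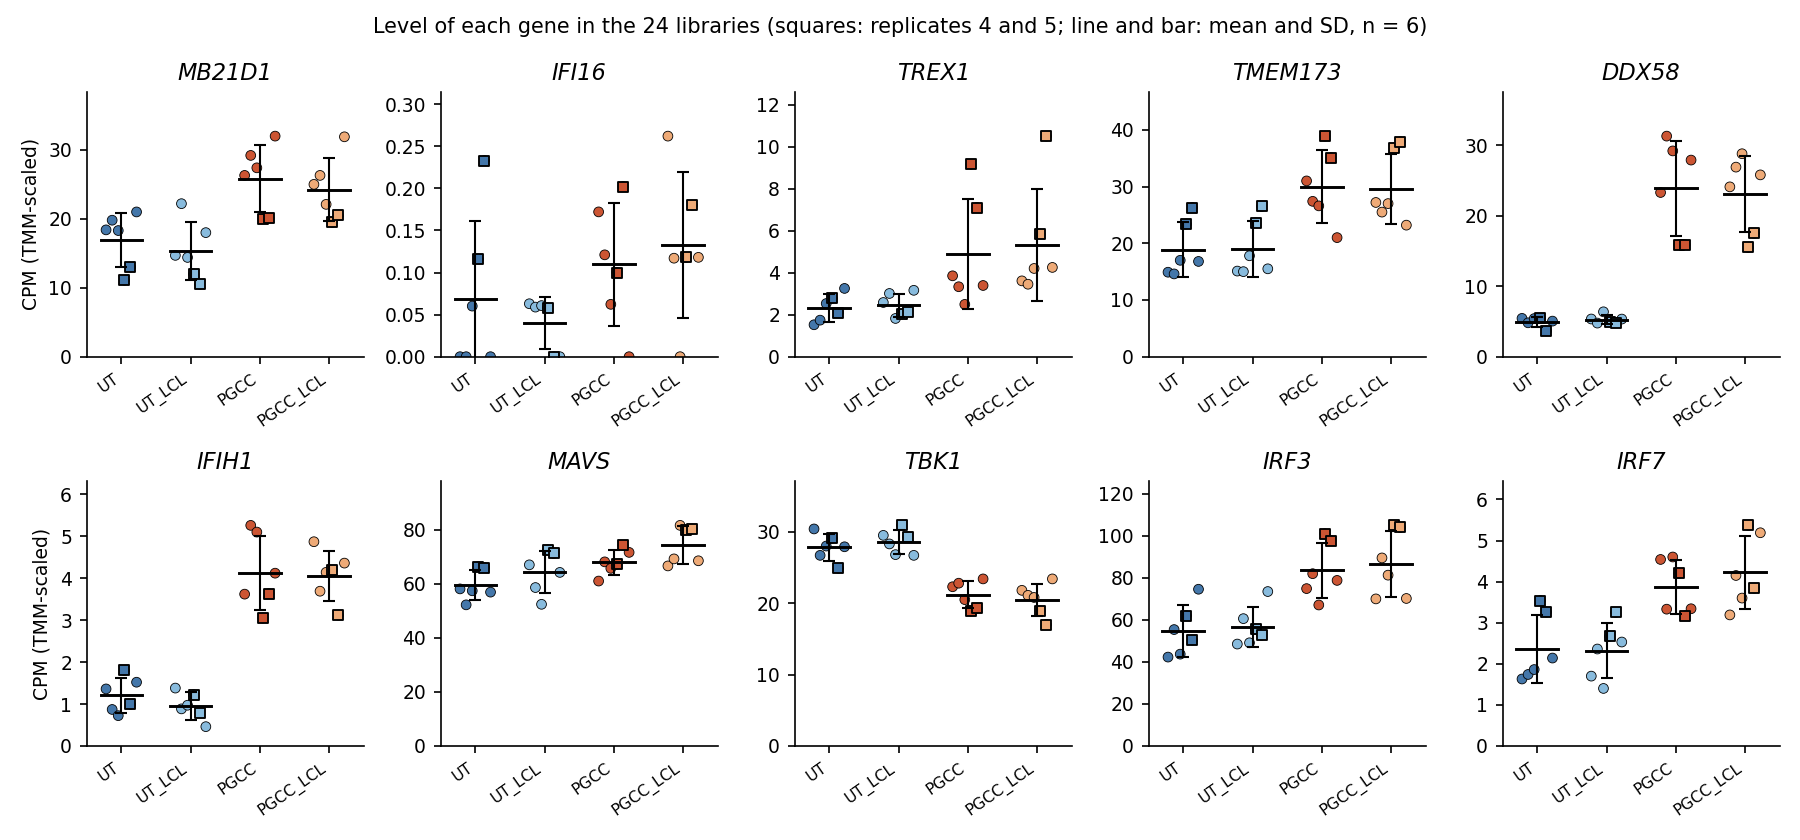
Level of each of the 10 genes in CPM (TMM-scaled, vertical axis from 0) in the 24 libraries, grouped by condition. Points are libraries, squares are replicates 4 and 5, and lines with bars are the mean and SD of 6 libraries. DDX58 lay at 3.67 to 5.45 CPM in UT and 15.9 to 31.3 CPM in PGCC, TBK1 lay lower in both PGCC conditions, and IFI16 did not exceed 0.262 CPM in any library.

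DDX58 (ENSG00000107201, hg19 chr9:32455300-32526322, minus strand) encodes RIG-I, the helicase that recognises short double-stranded RNA with a 5′ triphosphate. Its level was 3.67 CPM at the lowest, 5.23 CPM at the median and 5.45 CPM at the highest in UT, and 15.9, 25.6 and 31.3 CPM in PGCC. Every PGCC library was above every UT library. The log2 fold change was 2.28 (SE 0.196, adjusted p = 7.64e-07, 95% interval 3.62-fold to 6.48-fold), and 2.66% of the genes tested had a larger one. In the 6 rounds the ratio of PGCC to UT ranged from 2.92 to 6.51.

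IFIH1 (ENSG00000115267, hg19 chr2:163123589-163175213, minus strand) encodes MDA5, the helicase that recognises long double-stranded RNA. It was the scarcest of the tested members, with 12 to 31 counts per UT library and 61 to 87 counts per PGCC library. Its level in UT was 0.722, 1.18 and 1.8 CPM at the lowest, median and highest, against 3.05, 3.87 and 5.26 CPM in PGCC. The groups did not overlap, and the log2 fold change was 1.77 (SE 0.24, adjusted p = 4.12e-05, 95% interval 2.39-fold to 4.89-fold). The ratio was above 1 in 6 of 6 rounds, but spread from 1.7 to 7.07. DDX58 and IFIH1 were 2 of the 9 members higher without overlap, and among all genes tested 13.9% were higher without overlap and 12.9% lower without overlap.

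MB21D1 (ENSG00000164430, hg19 chr6:74123238-74161999, minus strand) encodes cGAS. It lay at 11.1, 18.4 and 21 CPM in UT (lowest, median, highest) and at 20, 26.9 and 32 CPM in PGCC. The ranges overlapped slightly, since the lowest PGCC library was below the highest UT library. Within rounds the difference was the most even of the members that rose: the ratio was between 1.43 and 1.8 in all 6. In the cells with LCL-521 it ranged from 1.18 to 1.94, and TMEM173 was more even there, at 1.43 to 1.8. The log2 fold change was 0.62 (SE 0.174, adjusted p = 0.00927). DDX43 overlaps MB21D1 on the opposite strand over 4055 of its 38762 bases and had 0 to 6 counts per library, against a mean of 356 for MB21D1.

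TMEM173 (ENSG00000184584, hg19 chr5:138855119-138862520, minus strand) encodes STING, the adaptor below cGAS. Its level was 14.6, 16.9 and 26.3 CPM in UT and 21, 29.2 and 38.9 CPM in PGCC. The groups overlapped, and PGCC exceeded UT in 6 of 6 rounds, by 1.25 to 2.09 times. The log2 fold change was 0.68 (SE 0.177, adjusted p = 0.00627, 1.6-fold).

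TREX1 (ENSG00000213689, hg19 chr3:48506445-48509044, plus strand) encodes the main cytosolic DNA exonuclease, a brake on cGAS. It was measured at 1.52, 2.31 and 3.25 CPM in UT and at 2.49, 3.62 and 9.16 CPM in PGCC. Of the 6 PGCC libraries 5 were above the highest UT library, and replicates 4 and 5, at 9.16 and 7.1 CPM, were far above the other PGCC libraries. PGCC exceeded UT in 5 of 6 rounds, with ratios of 3.29 and 3.39 in rounds 4 and 5. The ratio was 2.53 in round 1, 1.91 in round 2, 0.985 in round 3 and 1.04 in round 6. The log2 fold change was 1.09 (SE 0.317, adjusted p = 0.0117). Without replicates 4 and 5 it was 0.56 and no longer passed the threshold (adjusted p = 0.0851), and with the replicate block on the same libraries it was 0.58 and passed (adjusted p = 0.0439). TREX1 shares 671 of its 2600 bases with ATRIP on the same strand. ATRIP, with 98 to 358 counts per library, also rose (log2 fold change 0.61, SE 0.199, adjusted p = 0.0218), so the TREX1 value is uncertain to the extent that reads of the shared stretch were assigned to it.

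IFI16 (ENSG00000163565, hg19 chr1:158969758-159024945, plus strand) encodes a DNA-binding protein of the nucleus and cytosol. It had 0 to 5 counts per library, with 0 counts in 7 of 24 libraries and at most 3 counts in 21. It was removed by the filter on low counts, did not pass the threshold between PGCC and UT without that filter, and reached at most 0.262 CPM in any library.

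MAVS (ENSG00000088888, hg19 chr20:3827487-3849280, plus strand) encodes the adaptor of RIG-I and MDA5. Its level was 52.2, 57.7 and 66.3 CPM in UT and 61, 67.6 and 74.2 CPM in PGCC. The groups overlapped and the difference was small, with a log2 fold change of 0.20 (SE 0.084, adjusted p = 0.0632, 95% interval 1.01-fold to 1.3-fold). With the replicate number as a block it was 0.20 with an adjusted p of 0.0384, which passed the threshold as 56.2% of all genes did. It also passed without replicate 4 (0.24, adjusted p = 0.0489), under DESeq2 (0.21, adjusted p = 0.0257) and under library totals alone (0.30, adjusted p = 0.0111). In 8 of 17 alternative fits MAVS did not pass, so its call depended on the fit. The adaptor of the RNA arm differed by at most 1.3-fold while its 2 sensors differed by at least 2.39-fold, at the bounds of their 95% intervals.

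TBK1 (ENSG00000183735, hg19 chr12:64845660-64895888, plus strand) encodes the kinase on which both arms converge. It lay at 24.9, 28 and 30.4 CPM in UT and at 18.9, 21.4 and 23.4 CPM in PGCC. Every PGCC library was below every UT library, and the ratio was between 0.648 and 0.851 in the 6 rounds. TBK1 fell by 0.39 on the log2 scale (SE 0.09, adjusted p = 0.00302), a share of counts 1.31-fold lower. Under library totals alone it fell by 0.29 (adjusted p = 0.0154), so the size of this small change depended on the scaling.

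IRF3 (ENSG00000126456, hg19 chr19:50162826-50169132, minus strand) encodes the transcription factor that TBK1 phosphorylates in most cells. Its level was 42.3, 52.9 and 74.6 CPM in UT and 67.1, 80.4 and 101 CPM in PGCC. The groups overlapped through UT replicate 6, and the ratio ranged from 1.06 in round 6 to 1.94. The log2 fold change was 0.62 (SE 0.145, adjusted p = 0.00298). BCL2L12 overlaps IRF3 head to head on the opposite strand over 310 of its 6307 bases, with 562 to 2300 counts per library, and rose more (log2 fold change 1.32, SE 0.1, adjusted p = 2.85e-07). Whether reads were counted by strand was not given in the sources used here, so some IRF3 reads may belong to BCL2L12.

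IRF7 (ENSG00000185507, hg19 chr11:612553-615999, minus strand) encodes the interferon-inducible relative of IRF3. It was measured at 1.63, 2 and 3.54 CPM in UT and at 3.17, 3.77 and 4.6 CPM in PGCC. The groups overlapped, and PGCC exceeded UT in 5 of 6 rounds. The log2 fold change was 0.71 (SE 0.224, adjusted p = 0.0175), and the call was lost without replicate 1 (0.57, adjusted p = 0.078) or without replicate 3 (0.59, adjusted p = 0.082).

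Levels of different genes were compared per length, as RPKM (CPM per kilobase of gene length). In UT the order by mean was IRF3 at 19 RPKM, MAVS at 14, TBK1 at 8.55, TMEM173 at 5.88, MB21D1 at 5.33, IRF7 at 1.15, DDX58 at 1.08, TREX1 at 1.06, IFIH1 at 0.337 and IFI16 at 0.0165 RPKM. Among neighbours in this order, the ranges over the 6 libraries were separate between MAVS and TBK1, between MB21D1 and IRF7, between TREX1 and IFIH1 and between IFIH1 and IFI16, and overlapped elsewhere. In PGCC the order was IRF3 at 29.1 RPKM, MAVS at 16, TMEM173 at 9.38, MB21D1 at 8.12, TBK1 at 6.51, DDX58 at 5.18, TREX1 at 2.22, IRF7 at 1.88, IFIH1 at 1.15 and IFI16 at 0.0265 RPKM. Ranges of neighbours were separate there between IRF3 and MAVS, between MAVS and TMEM173, between IRF7 and IFIH1 and between IFIH1 and IFI16. TBK1 moved from above TMEM173 and MB21D1 to below both, with a range in PGCC that overlapped both. DDX58 moved from the level of IRF7 and TREX1 to above IRF7, and its range then overlapped that of TBK1.

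The same comparison was made in cells that had received LCL-521, with other libraries (PGCC_LCL against UT_LCL). The same 8 members passed the threshold, in the same directions, where 48.9% of the 13818 genes tested did, 25% higher and 23.9% lower. DDX58 lay at 4.77, 5.14 and 6.37 CPM in UT_LCL and at 15.5, 24.9 and 28.8 CPM in PGCC_LCL, a difference of 2.16 on the log2 scale (SE 0.164, adjusted p = 1.74e-07). IFIH1 lay at 0.46, 0.927 and 1.38 CPM against 3.12, 4.17 and 4.87 CPM, a log2 fold change of 2.12 (SE 0.224, adjusted p = 3.55e-06). Both RNA sensors, and here TREX1 also, were higher without overlap between the groups, and TBK1 was lower without overlap, where 14.4% of all genes were higher and 13.7% lower in this way. TREX1 lay at 1.82 to 3.16 CPM in UT_LCL and at 3.45 to 10.5 CPM in PGCC_LCL (log2 fold change 1.13, SE 0.276, adjusted p = 0.00362).

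TBK1 fell by 0.45 in the cells with LCL-521 (SE 0.092, adjusted p = 0.00102). The log2 fold changes of the other members that passed were 0.69 for MB21D1 (adjusted p = 0.00475), 0.67 for TMEM173 (adjusted p = 0.00607), 0.64 for IRF3 (adjusted p = 0.00132) and 0.89 for IRF7 (adjusted p = 0.00379). MAVS differed by 0.24 (SE 0.095, adjusted p = 0.0533) and passed with the replicate block (adjusted p = 0.0365), as 56.3% of all genes did. The median over the 9 tested members was 0.69, against -0.01 over all genes tested.

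**Figure D2:**
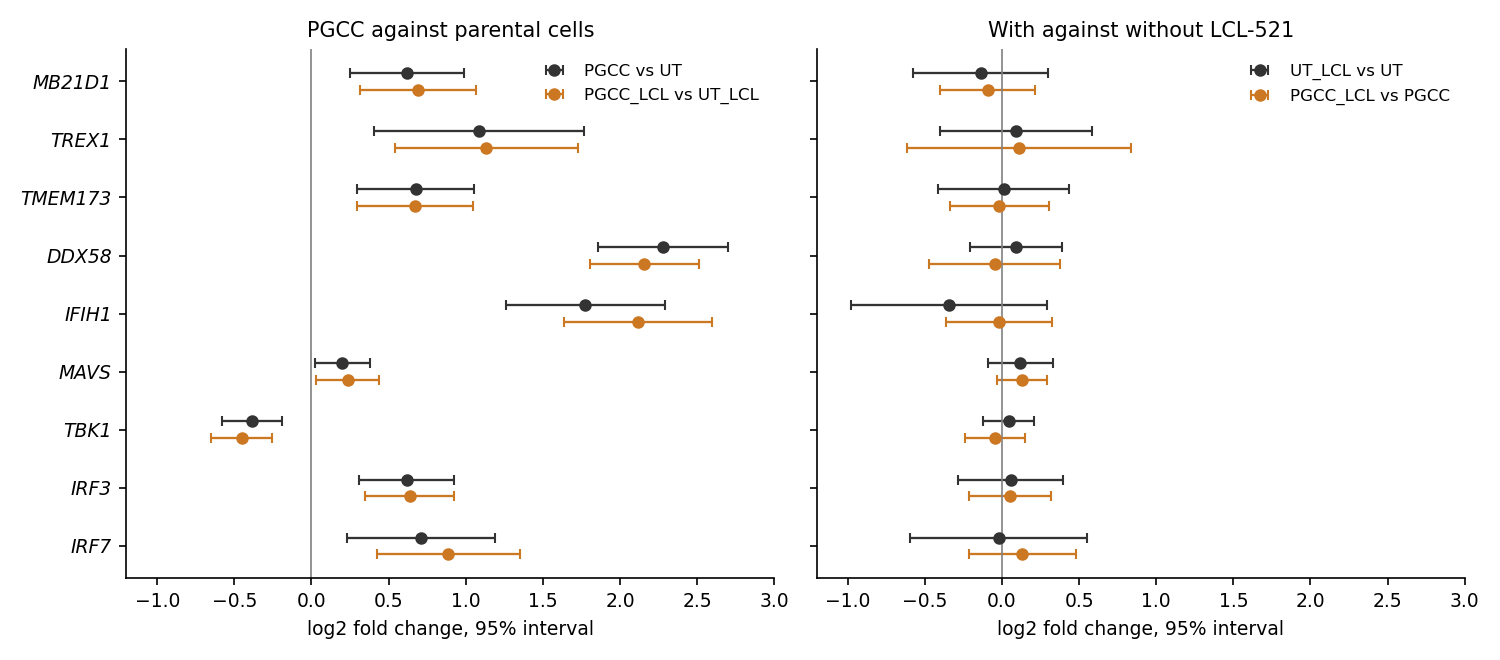
Log2 fold change of the 9 tested genes (horizontal axis) with 95% intervals, for PGCC against parental cells (left) and for LCL-521 within each population (right). The intervals of the comparisons with and without LCL-521 overlap for every gene on the left, and all intervals on the right include 0. All are from fits without the replicate block, and with it the intervals of MAVS on the right lay above 0.

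Comparison of cells with and without LCL-521 asked whether 5 h of acid ceramidase inhibition altered the sensing genes. In parental cells no member passed the threshold, and 0% of the 13277 genes tested did (0 by edgeR with 71 at an unadjusted p under 0.05, and 115 with the replicate block, 0.866%). In PGCC no member passed it, where 1 of 14151 genes did (0.00707%, and 234 or 1.65% with the block). The changes of the 9 members lay between -0.34 and 0.12 in parental cells and between -0.09 and 0.13 in PGCC on the log2 scale. Without the replicate block, their 95% intervals reached from 0.508-fold to 1.5-fold in parental cells and from 0.653-fold to 1.79-fold in PGCC. Those were the bounds of single members, from fits that left the spread between rounds in the error. With the block the intervals reached from 0.554-fold to 1.41-fold in parental cells and from 0.818-fold to 1.34-fold in PGCC. Without the block the interval was widest for IFIH1 in parental cells (0.508-fold to 1.23-fold) and for TREX1 in PGCC (0.653-fold to 1.79-fold). It was narrowest there for TBK1 in parental cells (0.92-fold to 1.16-fold) and for MAVS in PGCC (0.98-fold to 1.22-fold).

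In parental cells the smallest p-values among the members were those of MAVS (0.12, 95% interval -0.09 to 0.33), IFIH1 (-0.34, -0.98 to 0.29) and MB21D1 (-0.14, -0.57 to 0.30), all with an adjusted p of 1. In PGCC they were those of MAVS (0.13, -0.03 to 0.29), IRF7 (0.13, -0.22 to 0.48) and MB21D1 (-0.09, -0.40 to 0.22), also with an adjusted p of 1. MAVS had the smallest p in both. With the block its 95% interval was 0.016 to 0.219 in parental cells and 0.035 to 0.225 in PGCC, both above 0. Its adjusted p with the block was 0.329 in parental cells and 0.176 in PGCC. The difference between PGCC and parental cells was tested for a change with LCL-521 in all 24 libraries, and 0 of 14555 genes passed (60 at an unadjusted p under 0.05). The members with the smallest p there were IFIH1 (0.32, -0.34 to 0.99), TBK1 (-0.09, -0.33 to 0.16) and DDX58 (-0.13, -0.65 to 0.38), with an adjusted p of 1.

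Replicates 4 and 5, which stood apart in the second principal component, also stood apart in the DNA-sensing arm, and the sensor and its adaptor did so in opposite directions. MB21D1 in replicates 4 and 5 was below every other library of its condition in all 4 conditions: 11.1 to 13 CPM against 18.3 to 21 CPM in UT, and 20 to 20.1 CPM against 26.3 to 32 CPM in PGCC. TMEM173 in those replicates was above every other library in all 4 conditions: 23.4 to 26.3 CPM against 14.6 to 17 CPM in UT, and 35.1 to 38.9 CPM against 21 to 31 CPM in PGCC. MB21D1 in these replicates of PGCC lay within the range of the other rounds of UT, and TMEM173 in these replicates of UT lay within the range of the other rounds of PGCC. Among 14555 genes, 6.29% were below and 5.89% above the other libraries in all 4 conditions in this way.

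A second group of members differed in replicates 4 and 5 in both PGCC conditions while overlapping the other rounds in both parental conditions. TREX1 was at 7.1 to 9.16 CPM in these replicates of PGCC and at 2.49 to 3.85 CPM in the other 4. DDX58 was lower, at 15.9 CPM in both against 23.3 to 31.3 CPM, IRF3 was higher, at 97.7 to 101 CPM against 67.1 to 82 CPM, and TBK1 was lower, at 18.9 to 19.3 CPM against 20.5 to 23.4 CPM. In both PGCC conditions 13% of all genes lay above and 13.3% below in this way, genes that also did so in parental cells included. The mean ratio of PGCC to UT (geometric) was 3.34 in rounds 4 and 5 and 1.49 in the other rounds for TREX1, and 3.56 and 5.37 for DDX58.

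IRF7 and MAVS stood apart in replicates 4 and 5 of the parental conditions instead. IRF7 was at 3.26 to 3.54 CPM in these replicates of UT and at 1.63 to 2.14 CPM in the other 4, and the ratio of PGCC to UT was 1.08 in rounds 4 and 5 against 2.13 in the others. MAVS was at 66 to 66.3 CPM against 52.2 to 58.1 CPM in UT. In both parental conditions 18.9% of all genes lay above and 18.7% below. IFIH1 overlapped the other rounds in every condition. With replicates 4 and 5 left out, 8 of the 9 members passed the threshold between PGCC and UT, MAVS among them (0.27, adjusted p = 0.0167) and TREX1 not, where 54.6% of all genes passed. With the replicate block on the same libraries all 9 passed, where 64.3% of all genes did. What set these rounds apart is not given in the sources used here.

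**Figure D3:**
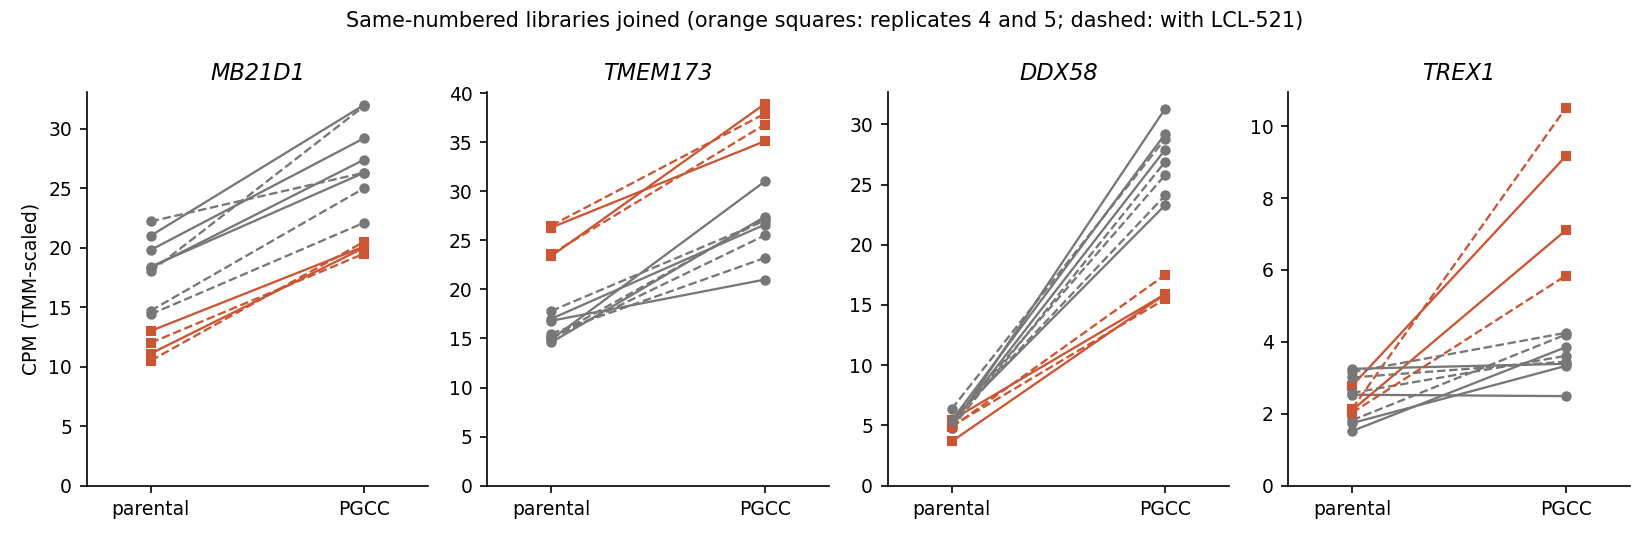
Levels in CPM (vertical axis from 0) of MB21D1, TMEM173, DDX58 and TREX1 in parental cells and PGCC, with libraries of the same replicate number joined. Orange squares are replicates 4 and 5, grey circles the other 4, and dashed lines the cells with LCL-521. MB21D1 is lowest and TMEM173 highest in replicates 4 and 5 in both populations, and DDX58 and TREX1 separate them in PGCC.

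The 91 other genes of the pathway were followed in 7 lists. Among interferon-stimulated genes, 9 of the 10 that could be tested rose in PGCC and 1 fell, with a median log2 fold change of 1.71, and the other 8 of the 18 had too few counts. Beside the 47.4% of all genes that passed, 100% of the tested genes of this list did, 87.5% of nucleases and RNA editing genes, 54.5% of DNA sensing and STING control genes, 53.8% of RNA sensing genes, 42.9% of adaptors and kinases, 33.3% of transcription factors and 16.7% of interferons and receptors. IFI6, an interferon-inducible mitochondrial protein, rose from 1.69 to 3.26 CPM in UT to 9.84 to 12.9 CPM in PGCC (2.19, SE 0.159, adjusted p = 2.05e-07). IFI44 rose by 1.93 (adjusted p = 3.26e-07), HERC5, the ligase of ISG15, by 1.85 (adjusted p = 0.00314) and IFIT2, which binds viral RNA, by 1.81 (adjusted p = 1.3e-06). HERC5 had 1 to 17 counts per UT library and owed its test to PGCC. HERC5 could hardly have been called lower, and the count, share and median of this list include it. They also include IFI44L, at 0.484 to 1.16 CPM in UT and 1.99 to 3.35 CPM in PGCC. In this comparison IFI44L met the filter on low counts only with PGCC libraries, and it was named after its values were seen. IFIT5 was the member of the list that fell (-0.81, adjusted p = 0.000859), and it was named after its values were seen.

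The interferons themselves were hardly detected: 6 of 7 interferon genes (IFNB1, IFNA1, IFNK, IFNL1, IFNL2 and IFNL3) had at most 3 counts in every library, and IFNE had at most 9. Of the 6 tested genes of interferons and receptors 1 passed, IFNLR1, a subunit of the type III interferon receptor (0.84, adjusted p = 0.0294). That call was lost with the replicate block (adjusted p = 0.0577), without replicates 4 and 5 (0.27, adjusted p = 0.446), and without replicate 1, 4, 5 or 6 singly (0.84, 0.51, 0.75 and 0.89, adjusted p = 0.0603, 0.142, 0.0941 and 0.0519). Of 6 tested transcription factors 2 rose and none fell. IRF1 rose by 1.11 (adjusted p = 0.021), and was lost without replicate 1 (1.09, adjusted p = 0.0538) or 2 (1.06, adjusted p = 0.0685). STAT2 rose by 0.69 (adjusted p = 0.0228), and was lost without replicate 2, 3 or 5 (0.65, 0.63 and 0.65, adjusted p = 0.0736, 0.0556 and 0.0592).

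RNA sensing genes other than the members were split, with 5 of 13 tested higher, 2 lower and a median of 0.14. The 4 largest changes were the 2′-5′-oligoadenylate synthetases OAS2 (3.09, adjusted p = 3.25e-05) and OAS3 (3.04, adjusted p = 8.5e-08), their relative OASL, which enhances RIG-I signalling (2.39, adjusted p = 2.33e-07), and the helicase DDX60 (2.31, adjusted p = 2.41e-06). OAS3 rose from 1.92 to 4.81 CPM in UT to 22.6 to 29.4 CPM in PGCC. OAS2 had 1 to 7 counts per UT library and 16 to 38 per PGCC library, so it owed its test to PGCC and its fold change is imprecise.

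DNA sensing and STING control genes had 2 of 11 tested higher and 4 lower, with a median of -0.09. G3BP1, which promotes DNA binding by cGAS, fell by 0.76 (adjusted p = 2.14e-05), from 498 to 687 CPM in UT to 304 to 396 CPM in PGCC. STIM1, which holds STING at the endoplasmic reticulum, rose by 0.71 (adjusted p = 0.00751). NLRC3, a negative regulator of STING, fell by 0.91 (adjusted p = 0.0354), and its call was lost without replicate 3, 4 or 6 (-0.96, -0.64 and -0.83, adjusted p = 0.0645, 0.128 and 0.0935). It was also lost under limma-voom, under library totals alone, with no filter beyond 1 count and without replicates 4 and 5. The call was kept in 8 of 16 alternative fits. NLRC3 was scarce, at 0.653 to 2.2 CPM in UT and 0.445 to 1.01 CPM in PGCC. It met the filter on low counts through UT, the group where it was higher. SLC19A1, an importer of cyclic dinucleotides, fell by 0.48 (adjusted p = 0.0365), and its call was lost without replicate 1, 2, 3 or 6 (-0.44, -0.41, -0.45 and -0.40, adjusted p = 0.0842, 0.13, 0.0995 and 0.126). It was also lost under limma-voom, under library totals alone and with at least 10 counts required in every library. The call was kept in 10 of 17 alternative fits.

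Of 8 nucleases and RNA editing genes 4 were higher and 3 lower, with a median of 0.25. RNASEH2A, the catalytic subunit of RNase H2, rose by 1.22 (adjusted p = 2.22e-06), and RNASEH2C, another subunit, by 0.55 (adjusted p = 0.000325). DNASE2, the lysosomal DNase, fell by 0.81 (adjusted p = 0.0183), a call that was lost without replicate 5 (-0.58, adjusted p = 0.0682). SAMHD1, a dNTP hydrolase, rose by 0.38 (adjusted p = 0.016), and was lost without replicate 3 or 5 (0.37 and 0.33, adjusted p = 0.051 and 0.0534).

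Adaptors and kinases had 3 of 14 tested higher and 3 lower, with a median of -0.11. OPTN, an adaptor that binds TBK1, rose by 1.80 (adjusted p = 4.31e-05), and IKBKE, the kinase most like TBK1, rose by 1.33 (adjusted p = 0.00032), from 1.51 to 3.71 CPM in UT to 4.64 to 7.73 CPM in PGCC. TICAM1, the adaptor of TLR3, rose by 0.53 (adjusted p = 0.000549). IKBKG, the regulatory subunit of the IKK complex, fell by 0.51 (adjusted p = 0.00174), a value that is uncertain because the gene has a near-identical pseudogene and the assignment of reads between them was not examined.

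In the cells with LCL-521 the lists gave like counts, with 9 of 11 tested interferon-stimulated genes higher and 1 lower (median 1.62), 6 of 13 RNA sensing genes higher and 2 lower, and 2 of 11 DNA sensing and STING control genes higher and 3 lower. NLRC3 was among those that did not pass there (-0.70, adjusted p = 0.0808, and 0.0456 with the block). The interferon-stimulated gene RSAD2 was tested only with LCL-521, at 0 to 0.126 CPM in UT_LCL and 0.6 to 1.36 CPM in PGCC_LCL. Like HERC5, RSAD2 owed its test to the PGCC libraries and could hardly have been called lower. No gene of the 7 lists passed the threshold in either comparison of LCL-521, and with the block 1 interferon-stimulated gene did in parental cells.

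Beside these changes, the leukocyte marker PTPRC was at 0.406 to 2.74 CPM in UT and 2.34 to 4.02 CPM in PGCC, and CD14 at 0.058 to 0.346 and 0.124 to 0.666 CPM. CD3E, a T cell marker, had at most 1 count in any library. The summed level of 4 fibroblast markers was 49.8 to 133 CPM in UT and 79.1 to 205 CPM in PGCC, that of the 2 endothelial markers in the table was 0 to 1.34 and 0.363 to 1.01 CPM, and that of the 5 epithelial markers was 782 to 1030 and 966 to 1480 CPM. Single markers within these sums went different ways: KRT8 was at 56.4 to 87.1 CPM in UT and 144 to 222 CPM in PGCC, KRT18 at 184 to 268 and 150 to 196 CPM, COL1A2 at 42.4 to 127 and 71.3 to 199 CPM, and COL1A1 at 5.53 to 13.1 and 5 to 8.17 CPM. Mitochondrially encoded genes took 0.954% to 4.33% of counts in the parental conditions and 1.92% to 5.33% in the PGCC conditions. The part of these differences in the changes of the sensing genes was not tested.

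**Figure D4:**
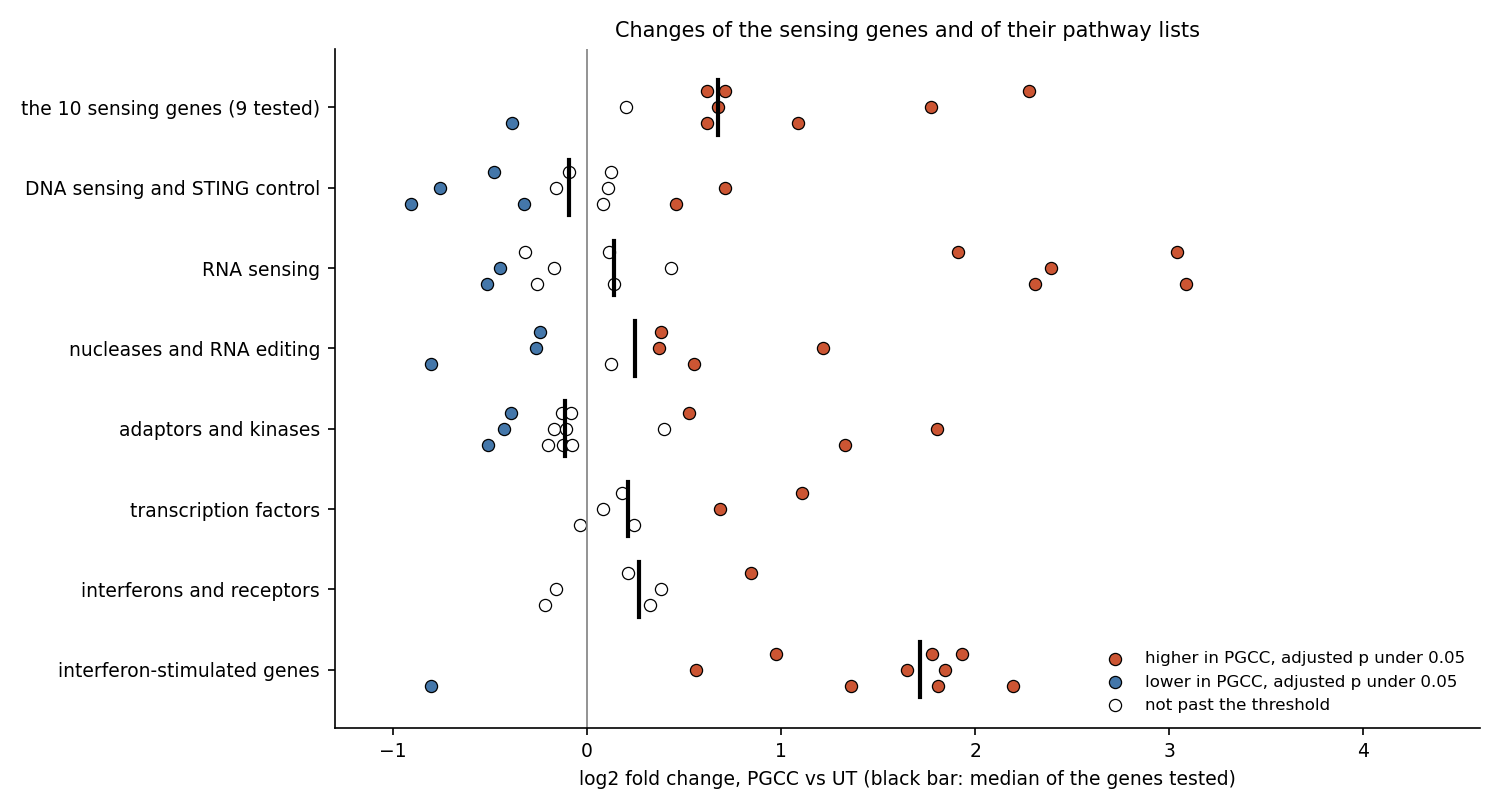
Log2 fold change between PGCC and UT (horizontal axis) of each tested gene, for the 9 tested sensing genes and the 7 pathway lists. Filled points passed an adjusted p of 0.05, orange higher and blue lower in PGCC, open points did not, and black bars are medians. The medians were 0.68 for the sensing genes, 1.71 for interferon-stimulated genes and between -0.11 and 0.27 for the other lists.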

How the data were processed

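Counts of reads per gene were deposited by the authors without normalization. The submitters' processing notes name CASAVA, STAR, HTSeq and DESeq2 and the build hg19. The annotation release and the use of strand in counting are not given in the sources used here. The deposited table also lists each gene's coordinates and length in bases.

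The fits were run in R (version 4.3.3). Package versions were 4.0.16 for edgeR, 3.58.1 for limma and 1.42.0 for DESeq2. Each comparison was fitted across all genes of the 12 libraries of its 2 conditions, after filterByExpr (minimum count 10, minimum total 15) and TMM scaling, with edgeR's quasi-likelihood test and Benjamini-Hochberg adjustment over all genes tested at a threshold of 0.05. The interaction used all 24 libraries. Standard errors were derived from each change and its F statistic, and intervals are at 95%. The members, lists and tests were chosen with earlier results of these data known.

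Named genes were all 10 members, up to 4 genes per pathway list with the largest changes past the threshold between PGCC and UT, the 3 members with the smallest p in each comparison of LCL-521, genes overlapping a member, and CDKN1A. The replicate number was used as a block in an alternative fit. The series' design states that each round was harvested in parallel, and deviations of same-numbered libraries from their condition means correlated in every pair (r = 0.237 to 0.412 between PGCC and UT, 0.171 to 0.444 between PGCC_LCL and UT_LCL, 0.458 to 0.813 within parental cells and 0.385 to 0.619 within PGCC). Replicates 4 and 5 stood apart in every condition, so a positive r alone does not show a shared round. The best match had the same number for 5 of 6 PGCC libraries against UT and 3 of 6 PGCC_LCL libraries against UT_LCL. It did for 6 of 6 libraries within each population. Other alternatives were DESeq2, limma-voom, RLE factors, library totals, other filters, a gene length correction with the block, all 24 libraries in 1 fit, and leaving out each replicate or replicates 4 and 5. The procedure was tested on simulated data. The floor of 3 counts covers counting error only.

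Promoter sequences and start sites were those of RefSeq on GRCh38.p14. No entry was used for MB21D1, TMEM173, IRF3 and IRF7. Motifs were searched on both strands. Some markers of the cell type lists are not reported here. Coordinates of genes are on hg19 as deposited, and the builds were not mixed.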

Additional observations from a re-analysis of the deposited data

Results flagged for a closer look

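Of 36 groups of 6 libraries (9 genes in 4 conditions), 3 held a library whose gap to its nearest neighbour exceeded Dixon's 95% critical share of the range of the group, and chance flags about 1 group in 20. DDX58 in UT replicate 5 was the lowest of its condition at 3.67 CPM, with the next library at 4.81 CPM and the highest at 5.45 CPM. DDX58 in UT_LCL replicate 3 was the highest at 6.37 CPM, with the next at 5.35 CPM and the lowest at 4.77 CPM. TREX1 in PGCC_LCL replicate 5 was the highest at 10.5 CPM, with the next, replicate 4, at 5.84 CPM and the lowest at 3.45 CPM.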

How the results depend on the processing

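No named gene changed direction under any alternative. For LCL-521 and its interaction, direction was followed only for the 3 members with the smallest p in each comparison. The balance of all calls between PGCC and UT did: 48.7% were higher in PGCC (median log2 fold change of all genes -0.03), against 60.2% (median 0.07) under library totals alone and 57.4% (median 0.25) with no filter beyond 1 count, over a range of 47.7% to 60.2%. The number of genes past the threshold lay between 5529 and 8881 for PGCC against UT, and between 5734 and 8035 for PGCC_LCL against UT_LCL, and the number of members between 7 and 9 and between 8 and 9. For UT_LCL against UT, 0 genes became 115 with the replicate block, 234 with the block and a gene length correction and 3 with the block without replicates 4 and 5. For PGCC_LCL against PGCC, 1 gene became 6 with DESeq2, 0 with limma-voom, 234 with the block, 260 with the block and a gene length correction, 0 with all 24 libraries in 1 fit, 0 without replicates 4 and 5 and 129 with the block without them, and 0 to 1 with each replicate left out. No member passed in any comparison of LCL-521 under any setting. Between populations, 287 of the members' values in alternative fits kept their side of the threshold, 3 lost it (TREX1 and IRF7, as given above) and 15 gained it, all of MAVS. Among the other named genes 725 kept it, 47 lost it and 4 gained it. Apart from MAVS, IFNLR1 and NLRC3, the replicate block changed no call of a named gene. IFIH1 gave no value between PGCC_LCL and UT_LCL under a filter of at least 10 counts in every library. Depth limits IFIH1 most among the tested members, and IFI16 and the interferons lie at or near the floor of 3 counts. The cause of the changes with setting was not tested.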
